A study of Mus musculus with 18 samples.

Results

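The comparison set naïve bone marrow-derived macrophages (BMDM) given hemicholinium-3 (HC3) directly against naïve BMDM given RSM-932a (RSM), with 3 libraries a side out of the 18 libraries sequenced. Libraries were chosen by their labels alone, and the genes described are the 14979 of 55385 listed genes that reached 10 counts in 2 or more of the 18. HC3 blocks the entry of choline into the cell, whereas RSM inhibits choline kinase, the enzyme that phosphorylates choline once it is inside, so the comparison asks where blocks at 2 successive steps of the same pathway left different transcripts. All cells came from the bone marrow of 12-week-old female C57BL/6J mice, were differentiated with L929 supernatant, a source of macrophage colony-stimulating factor, and were harvested on day 7. The HC3 group then received 250 µM HC3 and the RSM group 5 µM RSM for 24 h, followed by 24 h without IL-4, the naïve state named M[0]. Vehicle cells (Veh, 0.1% DMSO, 3 libraries in M[0]) and cells given 20 ng/mL IL-4 after the same pretreatments (M[IL-4], 3 libraries a group) are used only as reference points. Cells were prepared from 3 individual mice, and the labels do not say which mouse gave which library. Each inhibitor was used at 1 dose, so compound and dose cannot be told apart.

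Choline enters the cell through transporters, is phosphorylated by choline kinase, joined to CTP and transferred to diacylglycerol, which gives phosphatidylcholine, the main phospholipid of animal membranes. Mitochondria import their phosphatidylcholine from the endoplasmic reticulum, and their own small circular chromosome encodes the rRNAs, tRNAs and some subunits of the respiratory chain. Both strands of that chromosome are transcribed as long precursors that are cut at the tRNAs, with the rRNA genes at the start of the heavy-strand transcript. Macrophages in addition carry large and variable programmes for antigen presentation, scavenging, lipid handling and chemotaxis.

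Total counts were 17973868 to 19285482 in the 6 libraries, at which 3 counts in 1 library correspond to 0.153 to 0.160 CPM (counts scaled to a common library size). All 12 macrophage markers passed the count filter. *Pax5*, *Ms4a1*, *Cd3d*, *Cd3e*, *Ly6g*, *Elane* and *Lum*, markers of other cells, had no counts in the 6 libraries, but other members of their lists did. Of 12 stromal markers 10 passed the filter, of 12 neutrophil markers 4, of 9 B cell markers 3 and of 10 T and NK markers 1. The summed macrophage markers were lower with HC3 (9659 to 10680 CPM) than with RSM (16780 to 18120 CPM), largely through *Lyz2*, the most abundant of them. In bulk RNA, fewer cells of a type and less RNA per cell cannot be told apart.

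HC3 and RSM separated 456 of the 14979 genes (3.04%), of which 241 were higher with HC3 (1.61% of those tested) and 215 were higher with RSM (1.44%). A gene was called at a Benjamini-Hochberg FDR under 0.05 and a change of at least 2-fold in edgeR's quasi-likelihood test. With the FDR alone, 2039 genes passed (13.6%), 926 higher with HC3 and 1113 higher with RSM. This count depended strongly on the fit, at 2953 with a block for the replicate number, 3985 with the block within each polarization, 1347 without replicate 1 and 662 without replicate 3. Most calls were of moderate size. Of the HC3-high genes, 171 differed by 2- to 4-fold, 46 by 4- to 8-fold and 24 by more, and of the RSM-high genes 159, 30 and 26 did. The lowest library of the higher group lay above the highest library of the lower group for 237 of the 241 and for 212 of the 215 genes, a separation that 31.6% of all tested genes showed in either direction. Of the 215 RSM-high genes 25 lay on the mitochondrial chromosome, against 2 of the 241 HC3-high genes. Without replicate 3 in any group 256 genes were called (117 and 139), and without replicate 1 the HC3-high genes numbered 158. None of the 456 genes changed direction under any alternative.

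**Figure D1:**
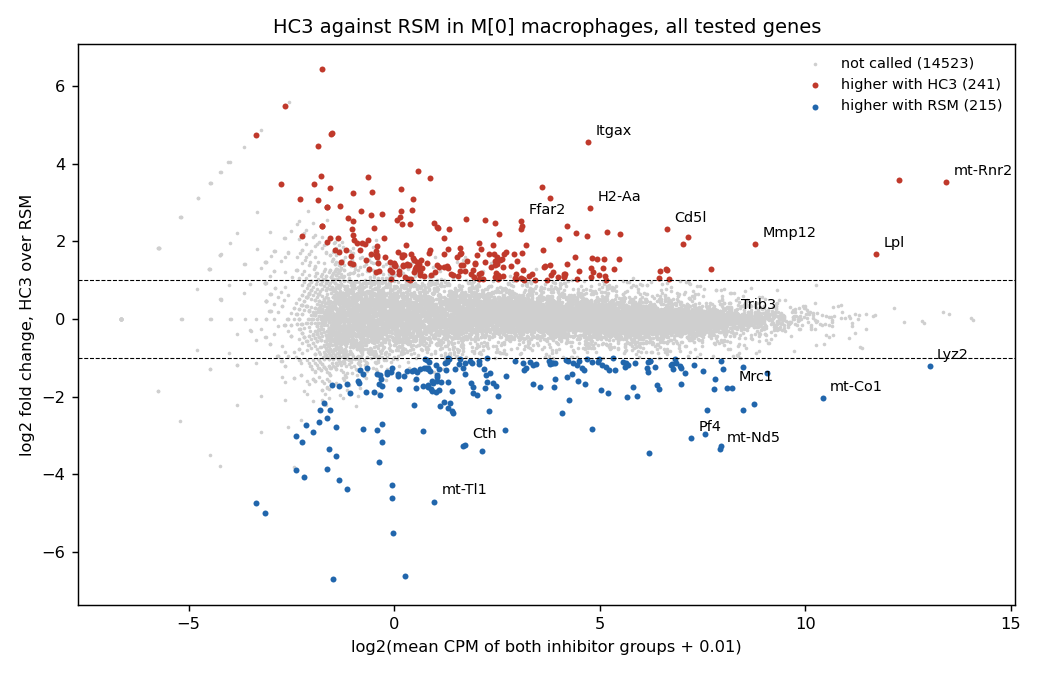
Each point is 1 of the 14979 tested genes. The x axis gives the log2 of its mean CPM over the HC3 and RSM libraries plus 0.01. The y axis gives its log2 fold change of HC3 over RSM in M[0], with dashed lines at a 2-fold change. The 241 red points were higher with HC3, the 215 blue points were higher with RSM and the 14523 grey points were not called. *Itgax*, *mt-Rnr2*, *mt-Nd5* and *Pf4* are among the labelled genes. Some grey points of low counts also lie far from 0, such as *Ccl22* at 3.80, with 5 counts over the HC3 libraries and 0 over the RSM libraries.

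Transcripts of the mitochondrial chromosome differed strongly between the inhibitors, and in opposite directions by class. All 27 tested genes of that chromosome were called. The 2 rRNA genes were higher with HC3, while all 12 tested messenger RNAs and all 13 tested tRNAs were higher with RSM. *mt-Rnr2*, the large rRNA (ENSMUSG00000064339, mitochondrial chromosome 1094 to 2675 of GRCm38, forward strand), had 22130, 22760 and 15950 CPM with HC3 in replicates 1 to 3. With RSM it had 2002, 1569 and 1698 CPM, and with Veh 391, 383 and 329 CPM. The 3 groups did not overlap, and RSM lay between Veh and HC3. The difference was 11.5-fold (log2 fold change 3.53, SE 0.168, FDR = 1.41e-10). *mt-Rnr1*, the small rRNA (positions 70 to 1024), differed by 11.9-fold (log2 fold change 3.57, SE 0.204, FDR = 1.31e-09), with 7271 to 10390 CPM under HC3, 680 to 912 under RSM and 108 to 151 under Veh.

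The messenger RNAs were in the reverse order, with Veh highest, RSM intermediate and HC3 lowest for 10 of the 12 by the test of each inhibitor against Veh. *mt-Nd5*, a core subunit of complex I, had 49.4, 39.8 and 41.0 CPM with HC3. It had 432, 500 and 395 CPM with RSM and 2355, 2047 and 1931 CPM with Veh. The groups did not overlap, and RSM again lay between Veh and HC3. The difference was 10.2-fold (log2 fold change -3.35, SE 0.161, FDR = 1.41e-10). *mt-Nd4*, of the same complex, had the lowest FDR of all genes, at 42.9 to 43.8 CPM with HC3 and 315 to 370 with RSM (7.79-fold, FDR = 5.08e-12). *mt-Cytb*, the mitochondrial subunit of complex III, was 5.10-fold higher with RSM, and *mt-Co1*, the catalytic subunit of complex IV, 4.07-fold (500 to 579 CPM with HC3, 1941 to 2561 with RSM). *mt-Nd6*, the messenger RNA read from the opposite strand, was also higher with RSM, at 9.68 to 15.9 CPM with HC3 and 114 to 150 with RSM (log2 fold change -3.46). Over the 12 messenger RNAs the log2 fold change ran from -3.46 to -1.40 with a median of -2.53, against 0.017 over all genes tested. *mt-Nd4l* kept the order without overlap, at 0.102 to 0.268 CPM with HC3, 1.18 to 1.78 with RSM and 2.26 to 2.49 with Veh, but RSM missed the 2-fold threshold against Veh (log2 fold change -0.73, FDR = 0.045). *mt-Nd3* did not keep it, with 0.615 to 0.856 CPM with HC3, 7.26 to 8.79 with RSM and 5.92 to 7.26 with Veh. For *mt-Co2*, *mt-Co3*, *mt-Atp6*, *mt-Nd3* and *mt-Nd4l* at least 98.99% of the transcript has a near-identical copy on chromosome 1, and *mt-Co1* and *mt-Nd4* share 31.3% and 63.6%. Their counts after the mapping quality filter are therefore uncertain. The 7 copies were themselves called higher with RSM, with log2 fold changes of -3.16 to -1.28.

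Among the tested genes in map order, the direction first changes at *mt-Tl1*. This tRNA gene for leucine lies between the large rRNA (which ends at 2675) and *mt-Nd1* (which begins at 2751). *mt-Tv*, a tRNA gene between the 2 rRNA genes (1025 to 1093), missed the count filter. It had 0 counts over the HC3 libraries, 13 over the RSM libraries and 0 over the Veh libraries. The tested genes alone therefore do not place a switch on the map. The sequence of *mt-Tl1* is shown because this gene is the first tested after the rRNAs, which were higher with HC3, and was itself higher with RSM. The sequence reads 5′ to 3′ on the forward strand at chrM:2676-2750, from the GENCODE transcript sequences of GRCm38.
mt-Tl1: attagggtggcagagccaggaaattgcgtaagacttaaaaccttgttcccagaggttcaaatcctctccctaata
*mt-Tl1* had 8 counts over the 3 HC3 libraries, 218 over the RSM libraries and 150 over the Veh libraries (log2 fold change of HC3 over RSM -4.70, SE 0.437, FDR = 4.85e-07). *mt-Nd1* on its downstream side had 141 to 176 CPM with HC3 and 643 to 754 with RSM. Counts on tRNA genes were low, 10 to 487 over the 3 RSM libraries and 0 to 146 over the HC3 libraries among the 13 tested. The libraries were selected by poly-T, so a change in the level of an RNA and a change in its poly(A) tail cannot be told apart.

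**Figure D2:**
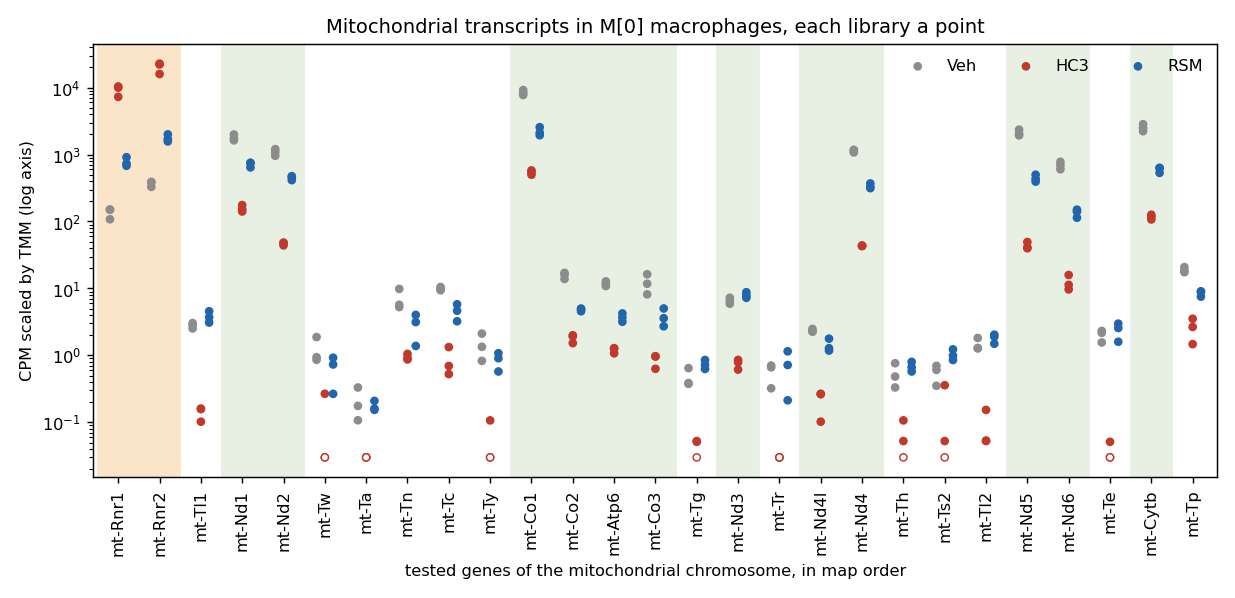
The 27 tested genes of the mitochondrial chromosome stand in map order on the x axis, with the rRNA genes shaded orange, the messenger RNAs green and the tRNAs unshaded; the y axis gives CPM scaled by TMM on a log axis, each point is 1 M[0] library, and open circles at the bottom mark libraries without a count. HC3 (red) lies above RSM (blue) and Veh (grey) at both rRNA genes and, by group mean, below them at the other 25 genes, and RSM lies between Veh and HC3 at most messenger RNAs.

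As shares of a library, mitochondrial rRNA took 2.42% to 3.36% of all counts with HC3, 0.231% to 0.304% with RSM and 0.0439% to 0.0543% with Veh. Mitochondrial messenger RNA took 0.0940% to 0.107%, 0.454% to 0.560% and 1.63% to 1.97%. The number of rRNA counts for each messenger RNA count was 25.7 to 34.8 with HC3, 0.412 to 0.599 with RSM and 0.0270 to 0.0303 with Veh. The 3 groups did not overlap in this ratio. The lists of nuclear genes for the same organelle had no called member, although *Aldh1l2*, a mitochondrial enzyme outside these lists, was called higher with RSM. None of 73 tested nuclear subunits of the respiratory chain was called (median log2 fold change 0.085, range -0.14 to 0.26, and 1 passed the FDR alone). Nor was any of 30 genes of mitochondrial transcription, processing and translation (median 0.0016, with 1 past the FDR alone). Of 16 mitochondrial stress genes none was called and 4 passed the FDR alone, against 13.6% of all genes.

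Among nuclear genes, those of MHC class II stood out on the HC3 side. The genes of the α and β chains, which display peptides to CD4 T cells, and of the invariant chain, which guides them to the endosome, were called lower than Veh with both inhibitors and were lower with RSM than with HC3. *H2-Eb1* (ENSMUSG00000060586, chromosome 17, 34305867 to 34316674, forward strand) had 22.6, 32.4 and 19.7 CPM with HC3, 2.56, 2.77 and 3.23 CPM with RSM and 55.7, 104 and 68.9 CPM with Veh. *H2-Aa* (chromosome 17, 34282744 to 34287823, reverse strand) had 41.8, 66.4 and 36.3 CPM with HC3 and 6.94, 6.96 and 5.96 CPM with RSM. All HC3 libraries lay above all RSM libraries for each of these genes. The differences were 8.69-fold for *H2-Eb1* (log2 fold change 3.12, SE 0.316, FDR = 1.33e-06), 7.29-fold for *H2-Aa* (FDR = 3.93e-06), 4.65-fold for *H2-Ab1* (FDR = 3.13e-06) and 3.81-fold for *Cd74*, the invariant chain (FDR = 2.24e-06). Of the 10 tested genes of the list these 4 were called, against 3.04% of all genes. The other 6 passed in neither direction, also by the FDR alone. No gene of 18 for MHC class I presentation was called (median log2 fold change 0.037).

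The promoters of *H2-Eb1* and *H2-Aa* are shown because class II genes are transcribed from a shared set of short boxes close to the start. As background, the Y box among them holds an inverted CCAAT sequence. The 150 bases before the listed start are printed 5′ to 3′ on the gene's strand from RefSeq (GRCm38.p6), at chr17:34305717-34305866 on the forward strand and chr17:34287824-34287973 on the reverse strand. Capitals mark CTGATTGG, searched on both strands, which begins 62 bases before the start of *H2-Eb1* and 51 bases before that of *H2-Aa*. These letters were chosen after the sequences were seen, and 6.00% of the 10544 promoters of tested genes hold them in a window of 300 bases.
H2-Eb1: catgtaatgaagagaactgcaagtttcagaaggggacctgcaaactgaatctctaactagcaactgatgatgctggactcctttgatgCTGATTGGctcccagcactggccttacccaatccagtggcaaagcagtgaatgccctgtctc
H2-Aa: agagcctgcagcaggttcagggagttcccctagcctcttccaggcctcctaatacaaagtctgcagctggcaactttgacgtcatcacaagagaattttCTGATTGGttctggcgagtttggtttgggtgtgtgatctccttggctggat
Of the 456 called genes, 282 (61.8%) had a promoter in this collection, too few for a comparison of motif shares between called and other genes, and none is given.

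*Itgax*, the integrin αX chain CD11c (ENSMUSG00000030789, chromosome 7, 128129547 to 128150657), showed the largest difference of any nuclear gene that averaged 50 or more counts in its higher group. It had 57.0, 50.9 and 43.5 CPM with HC3 and 2.88, 2.20 and 1.39 CPM with RSM. The Veh libraries, at 63.0, 62.7 and 57.2 CPM, lay close to those with HC3. HC3 exceeded RSM by 23.4-fold (log2 fold change 4.55, SE 0.179, FDR = 8.59e-12). Against Veh, the log2 fold change was -0.27 with HC3, not called, and -4.82 with RSM. Its promoter is printed as that of the nuclear gene that differed most among those averaging 50 or more counts in their higher group. The printed bases lie at chr7:128129400-128129549 on the forward strand (RefSeq, GRCm38.p6). Capitals mark a match to the AP-1 letters TGANTCA, searched on both strands, 56 bases before the start; 5.17% of the 10544 promoters hold such a match within 300 bases.
Itgax: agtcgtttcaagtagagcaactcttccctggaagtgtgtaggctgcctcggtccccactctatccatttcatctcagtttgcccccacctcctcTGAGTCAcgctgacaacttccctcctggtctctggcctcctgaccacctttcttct

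*Atp6v0d2*, a proton pump subunit needed for macrophage and osteoclast fusion, had 238, 271 and 181 CPM with HC3 and 59.3, 51.7 and 49.5 CPM with RSM. *Mmp12*, macrophage elastase, had 731, 791 and 567 CPM with HC3 and 187, 177 and 181 CPM with RSM. Neither was called against Veh with HC3, and both were called lower with RSM. The differences were 4.30-fold (log2 fold change 2.10, SE 0.167, FDR = 7.13e-08) and 3.84-fold (log2 fold change 1.94, SE 0.150, FDR = 5.35e-08). *Dcstamp*, the dendrocyte transmembrane protein of cell fusion, was 12.5-fold higher with HC3 than with RSM at low levels (2.79 to 3.69 against 0.103 to 0.366 CPM), and was called lower than Veh with both inhibitors (-1.77 with HC3 and -5.41 with RSM). *Mmp9*, gelatinase B, was 3.13-fold higher with HC3. *Mamdc2* was 10.7-fold and the activation receptor *Slamf8* 5.99-fold higher with HC3. *Itgb3*, the integrin β3 chain, was 2.19-fold higher (35.4 to 58.7 against 18.3 to 22.5 CPM), a call lost without replicate 2 and without HC3 replicate 2. *Itgb3* was called higher than Veh with HC3 (log2 fold change 1.59) and not with RSM (0.46).

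Genes for the uptake and breakdown of lipid differed in both directions. *Lpl*, lipoprotein lipase, had 6037, 4245 and 5192 CPM with HC3 and 1804, 1213 and 1813 CPM with RSM, against 7315 to 7529 with Veh. It was 3.20-fold higher with HC3 (log2 fold change 1.68, SE 0.132, FDR = 6.83e-08). *Mgll*, the lipase for monoglycerides, had 13.5, 15.4 and 14.9 CPM with HC3 and 2.45, 2.56 and 3.34 CPM with RSM. It was called higher than Veh with HC3 (log2 fold change 1.17) and lower with RSM (-1.22). *Cd5l*, a secreted scavenger protein that binds lipids, was 4.98-fold higher with HC3 (133 to 224 against 27.0 to 44.5 CPM), and *Mfge8*, which bridges apoptotic cells to phagocytes, 2.46-fold (288 to 314 against 116 to 128 CPM). On the RSM side stood *Msr1*, scavenger receptor A for modified lipoproteins, at 475 to 535 CPM against 205 to 230 with HC3. *Hilpda*, a lipid droplet protein, had 21.5 to 28.3 CPM with RSM and 10.2 to 13.6 with HC3, a call lost without HC3 replicate 1. Of the 31 tested genes of lipid uptake and storage, 2 were called higher with HC3 and 2 higher with RSM, against 1.61% and 1.44% of all genes. Their median log2 fold change was 0.031. None of 24 sterol synthesis genes (median 0.0094, with 3 past the FDR alone, all higher with RSM), 15 fatty acid synthesis genes or 28 autophagy genes was called. Among 55 lysosomal genes *Atp6v0d2* and *Ctsc*, cathepsin C, were called, 3.64% of the list against 3.04% of all genes. By the FDR alone 12 lysosomal genes were higher with HC3 and 8 with RSM, against 926 and 1113 of 14979 genes. For the autophagy genes these counts were 6 and 3, and for the fatty acid synthesis genes 1 and 2.

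Of 42 tested lectins and scavenger receptors, which bind microbial and scavenged ligands, 9 were called higher with RSM and 2 with HC3, *Cd5l* and *Clec7a*, against 1.44% and 1.61% of all genes. By the FDR alone 20 were higher with RSM and 4 with HC3, against 1113 and 926 of 14979 genes. The other 18 did not pass, and the median log2 fold change was -0.40. *Mrc1*, the mannose receptor CD206, had 155, 135 and 113 CPM with HC3 and 529, 413 and 434 CPM with RSM. The Veh libraries had 433 to 475 CPM, in the range of RSM. The difference was 3.41-fold (log2 fold change -1.77, SE 0.121, FDR = 1.21e-08). *Tlr2*, the receptor for bacterial lipoproteins, was 3.27-fold higher with RSM (122 to 138 against 36.1 to 45.6 CPM). *Stab1*, stabilin-1, had 755 to 820 CPM with RSM, 261 to 352 with HC3 and 1394 to 1669 with Veh, so that it was called lower than Veh with HC3 and not with RSM. *Clec7a*, the β-glucan receptor dectin-1, was 2.08-fold higher with HC3, and this call was lost without replicate 2, without HC3 replicate 2 and without RSM replicate 3.

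Of the 12 macrophage markers *Lyz2* and *Itgam* were called, both higher with RSM, against 1.44% of all genes. *Lyz2*, lysozyme M, had 4853, 5810 and 4548 CPM with HC3 and 11520, 12590 and 10870 CPM with RSM, against 11000 to 12140 with Veh. It was 2.30-fold higher with RSM (log2 fold change -1.20, SE 0.124, FDR = 1.63e-06). *Itgam*, the integrin αM chain CD11b, had 56.7 to 73.4 CPM with HC3, 145 to 175 with RSM and 238 to 261 with Veh. *Itgam* and *Itgax*, which pair with the same β2 chain, were thus called in opposite directions. Outside that list, *Maf*, a transcription factor of resident macrophages, was 2.44-fold higher with RSM (348 to 375 against 139 to 160 CPM). *C1qa*, a chain of complement C1q, was 2.59-fold and *Cfp*, properdin, 2.54-fold higher with RSM, both at lower levels than with Veh. By the FDR alone 4 of the 12 macrophage markers passed, all higher with RSM, and the list median was -0.12.

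**Figure D3:**
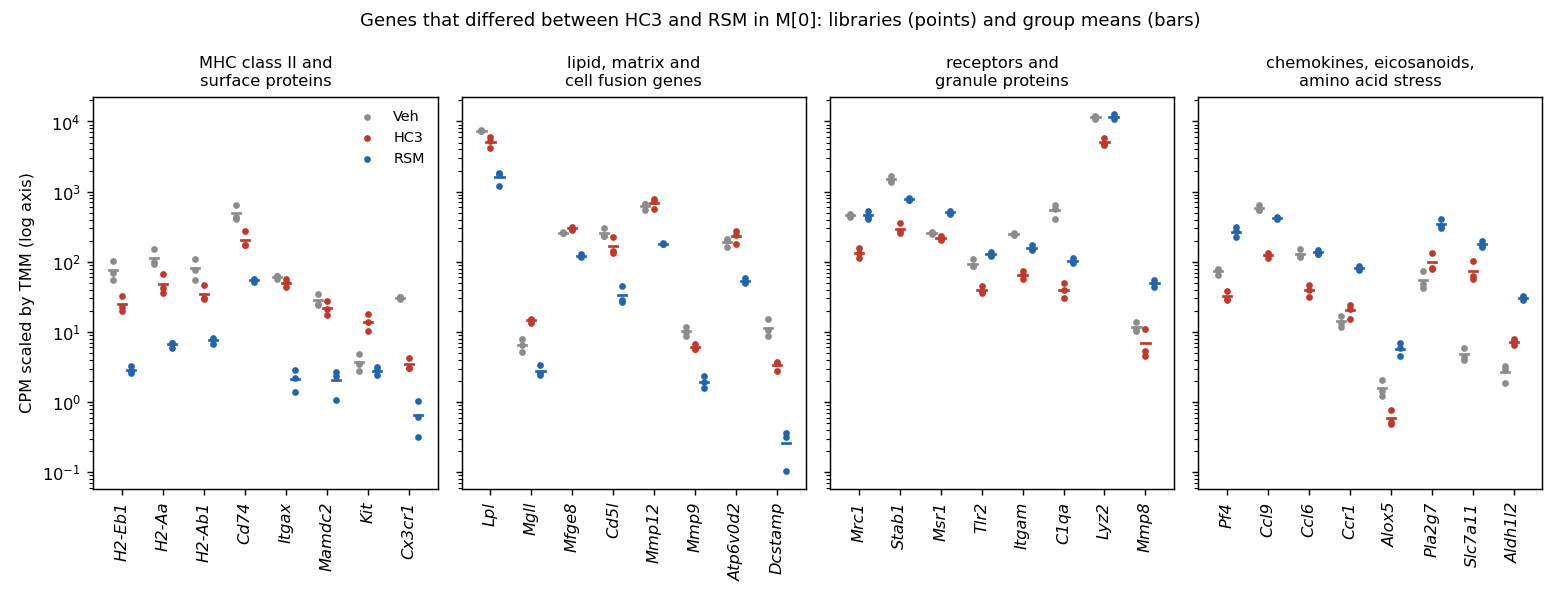
The y axis gives CPM scaled by TMM on a log axis for 32 called genes, with the 3 libraries of Veh (grey), HC3 (red) and RSM (blue) in M[0] as points and their mean as a bar. In the left 2 panels HC3 lies above RSM and in the right 2 panels under it, without overlap of the libraries; for *Itgax*, *Mmp12* and *Mfge8* HC3 lies near Veh, and for *Mrc1*, *Lyz2* and *Ccl6* RSM does.

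Chemokine genes differed in both directions. Of 30 tested ligands and receptors 9 were called higher with RSM and 5 with HC3, against 1.44% and 1.61% of all genes. *Pf4*, platelet factor 4 or CXCL4 (ENSMUSG00000029373, chromosome 5, 90772435 to 90773383), had 28.4, 29.2 and 38.4 CPM with HC3 and 308, 224 and 276 CPM with RSM. The Veh libraries, at 64.5, 75.6 and 78.7 CPM, lay between. *Pf4* was 8.42-fold higher with RSM (log2 fold change -3.07, SE 0.169, FDR = 7.36e-10), and it was called lower than Veh with HC3 (-1.19) and higher with RSM (1.88). *Ccl9* had 408 to 434 CPM with RSM and 113 to 135 with HC3 (3.39-fold), and *Ccl6* 129 to 147 and 31.6 to 46.9 CPM (3.45-fold). *Ccr1*, a receptor for such ligands, had 76.3 to 87.9 CPM with RSM and 15.4 to 24.3 with HC3 (FDR = 9.75e-08), and RSM alone was called above Veh. *Cxcl3*, a neutrophil attractant, reached 2.20 to 3.20 CPM with RSM against 0.161 to 0.717 with HC3. The HC3-high members were *Cx3cr1*, the fractalkine receptor of monocytes, its ligand *Cx3cl1*, the monocyte receptor *Ccr2*, *Cxcr3* and *Cxcl12*. *Cx3cr1* had 3.02 to 4.17 CPM with HC3, 0.320 to 1.05 with RSM and 29.5 to 31.8 with Veh. All 5 had their highest RSM library below their lowest HC3 library. The call of *Cxcl12* was lost without replicate 1, without replicate 3, without HC3 replicate 1 and without RSM replicate 2.

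Genes of eicosanoid synthesis and of receptors coupled to G proteins also differed. *Alox5*, 5-lipoxygenase, which starts leukotriene synthesis (ENSMUSG00000025701, chromosome 6, 116410077 to 116461178), had 0.482, 0.768 and 0.526 CPM with HC3 and 4.54, 6.90 and 5.80 CPM with RSM. Veh lay between at 1.24 to 2.06 CPM. The difference was 9.59-fold (log2 fold change -3.26, SE 0.319, FDR = 8.67e-07). *Pla2g7*, which hydrolyses platelet-activating factor, had 306 to 406 CPM with RSM and 79.2 to 135 with HC3 (3.48-fold); a gene on the other strand covers 11% of its exons. *Cysltr1*, a leukotriene receptor, was 3.00-fold and *Ptger2*, a receptor for prostaglandin E2, 2.46-fold higher with RSM. In the reverse direction *Ffar2*, a receptor for short-chain fatty acids, had 14.5, 15.9 and 13.2 CPM with HC3 and 2.29, 2.88 and 2.41 CPM with RSM, while the 3 Veh libraries had at most 0.118 CPM. It was called higher than Veh with both inhibitors and 5.73-fold higher with HC3 than with RSM (FDR = 7.13e-08). Of 46 tested complement and receptor genes 8 were called higher with RSM and *Ffar2* alone with HC3. Of 18 eicosanoid genes 2 were called, both higher with RSM. Over all genes the shares called were 1.44% with RSM and 1.61% with HC3.

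Secreted matrix proteins and proteases differed in both directions, 3 of 43 on each side, against 1.61% of all genes with HC3 and 1.44% with RSM. *Vcan*, the proteoglycan versican, had 334, 342 and 299 CPM with RSM and 70.1, 59.4 and 61.7 CPM with HC3, against 22.6 to 39.7 with Veh. It was 5.09-fold higher with RSM (log2 fold change -2.35, SE 0.167, FDR = 1.93e-08). *Mmp8*, a collagenase best known from neutrophils, had 43.4 to 54.4 CPM with RSM and 4.52 to 10.9 with HC3 (7.05-fold). Of 12 neutrophil markers 4 were tested, while *S100a9*, *Ly6g*, *Ngp*, *Elane*, *Retnlg* and *Cxcr2* had no counts in the 6 libraries. The list, with *Csf3r*, *Mmp8* and *S100a8* the most abundant, summed to 44.1 to 57.8 CPM with HC3 and 91.1 to 111 with RSM. *Postn*, periostin, was 2.41-fold higher with HC3 (137 to 145 against 57.5 to 59.3 CPM).

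The integrated stress response, in which phosphorylated eIF2α raises translation of ATF4 and thereby the transcription of amino acid genes, was above Veh with both inhibitors (list medians of 1.34 with HC3 and 1.73 with RSM). *Trib3*, a pseudokinase and ATF4 target, had 297, 320 and 329 CPM with HC3 and 281, 310 and 303 CPM with RSM, against 2.49 to 3.76 with Veh. The 2 inhibitor groups overlapped (log2 fold change 0.081, SE 0.0843, FDR = 0.606). *Ddit3*, the factor CHOP, and *Ern1*, the sensor IRE1α, passed the FDR alone, slightly higher with HC3, with log2 fold changes of 0.35 (FDR = 0.00677) and 0.24 (FDR = 0.0127). Of 44 tested genes of the list none was called higher with HC3 and 5 were called higher with RSM, 11.4% in all against 3.04% of all genes, and the median was -0.13. By the FDR alone 6 were higher with HC3 and 14 with RSM, against 926 and 1113 of 14979 genes, and 24 did not pass. The 5 were *Cth*, *Aldh1l2*, *Slc7a3*, *Slc7a11* and *Stc2*, the last a secreted protein gene named after its values were seen. *Cth*, cystathionine γ-lyase, which makes cysteine (ENSMUSG00000028179, chromosome 3, 157894248 to 157925077), had 0.589, 0.410 and 0.894 CPM with HC3 and 6.03, 5.39 and 6.62 CPM with RSM (9.46-fold, log2 fold change -3.24, SE 0.247, FDR = 4.73e-08). *Aldh1l2*, a mitochondrial folate enzyme, had 28.8 to 32.0 CPM with RSM and 6.40 to 7.87 with HC3 (4.27-fold), and a gene on the other strand covers 14.1% of its exons. *Slc7a3*, a transporter of cationic amino acids, was 7.22-fold higher with RSM at 0.800 to 1.80 CPM. *Slc7a11*, the cystine transporter, had 169, 200 and 163 CPM with RSM, 63.5, 102 and 56.1 CPM with HC3 and 4.03 to 5.87 CPM with Veh. Both inhibitors were called above Veh for *Slc7a11*, and RSM exceeded HC3 by 2.40-fold (log2 fold change -1.26, SE 0.209, FDR = 0.000351). None of 20 aminoacyl-tRNA synthetases and none of 30 ER chaperones and degradation factors was called.

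The promoter of *Slc7a11* is printed because amino acid response elements, which bind ATF4, are known from this gene. The 150 bases before its listed start lie at chr3:50443614-50443763 on the reverse strand (RefSeq, GRCm38.p6). Capitals mark 2 matches to the letters TGATGNAA, searched on both strands, that begin 66 and 47 bases before the start, the second on the opposite strand; 2.32% of the 10544 promoters hold at least 1 match within 300 bases.
Slc7a11: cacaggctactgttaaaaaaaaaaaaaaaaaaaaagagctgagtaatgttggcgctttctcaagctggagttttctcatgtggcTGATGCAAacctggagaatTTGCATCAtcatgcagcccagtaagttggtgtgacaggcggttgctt

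Many genes of glycolysis and of the response to low oxygen were slightly higher with RSM. Of 25 tested glycolysis genes 16 were higher with RSM and 2 with HC3 by the FDR alone, against 1113 and 926 of 14979 genes, and the median log2 fold change was -0.41. Of these 3 also reached 2-fold, 12% of the list against 3.04% of all genes. *Slc16a3*, the lactate exporter MCT4, had 153, 191 and 180 CPM with RSM and 78.8, 67.7 and 80.5 CPM with HC3, against 43.3 to 53.3 with Veh (2.30-fold, FDR = 8.36e-07). *Aldoc*, aldolase C, was 2.64-fold higher with RSM, and *Pdk1*, the kinase that inhibits pyruvate dehydrogenase, 2.17-fold, with HC3 below the Veh libraries in both cases. Of 18 hypoxia genes 11 were higher with RSM and 1 with HC3 by the FDR alone, with a median of -0.46. *Ankrd37*, *Egln3*, an oxygen-sensing prolyl hydroxylase, and *Hilpda* were the called members. *Egln3* had 18.1 to 25.6 CPM with RSM and 8.60 to 9.85 with HC3, and its call was lost without replicate 2, without replicate 3 and without RSM replicate 2; a gene on the other strand covers 26.4% of the exons of *Ankrd37*.

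Of 23 tested genes of the inhibited pathway, choline transport and phosphatidylcholine metabolism, none was called higher with HC3 and 2 were called higher with RSM, 8.70% of the list against 3.04% of all genes. By the FDR alone 1 was higher with HC3 and 4 with RSM, against 926 and 1113 of 14979 genes, and the median log2 fold change was -0.086. *Chka*, which encodes the choline kinase that RSM inhibits, had 22.4, 23.7 and 24.5 CPM with HC3, 26.9, 21.7 and 22.3 CPM with RSM and 21.5 to 24.8 CPM with Veh. The 3 groups overlapped. *Slc44a1*, the choline transporter CTL1, had 89.1 to 103 CPM with HC3 and 113 to 124 with RSM, below the 150 to 164 CPM of Veh. The groups did not overlap, but the difference missed the threshold in the reported fit (log2 fold change -0.27, SE 0.0957, FDR = 0.0768). Over the 18 alternatives its FDR ran from 0.0002 to 0.422. *Flvcr1*, a choline carrier, differed by 0.11 (SE 0.118, FDR = 0.63); a gene on the other strand covers 15.6% of its exons. The called members were *Lpcat2*, which re-acylates lysophosphatidylcholine and makes platelet-activating factor, with 47.0 to 54.2 CPM under RSM and 19.0 to 24.2 under HC3 (2.37-fold, FDR = 8.56e-07), and *Pcyt1b*, the minor form of the rate-limiting enzyme that activates phosphocholine with CTP, with 0.526 to 2.14 CPM over the 6 libraries. The call of *Pcyt1b* was lost under 7 of 18 alternatives, among them without replicate 1, 2 or 3. *Pcyt1a*, the major form of that enzyme, was not called (log2 fold change 0.11, SE 0.0971, FDR = 0.536). *Lpcat2* was called lower than Veh with HC3 (-1.70) and not with RSM (-0.46).

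By the FDR alone, 14 of 39 tested replication genes and 11 of 30 mitosis genes were higher with HC3, against 926 of 14979 genes. Higher with RSM were 1 and 0, the medians were 0.32 and 0.50, and 24 and 19 genes did not pass. The libraries did not overlap for 23 of the 39 and 10 of the 30 genes, a separation that 31.6% of all tested genes showed in either direction. Only *Nusap1*, a spindle protein, also reached 2-fold with HC3 (5.84 to 10.5 against 2.41 to 4.48 CPM), a call lost without replicate 3, without HC3 replicate 1 and without RSM replicate 2, and *E2f2*, a transcription factor, was 2.28-fold higher with RSM. Against Veh, the median of the replication genes was -0.37 with HC3 and -0.55 with RSM, and that of the mitosis genes -0.49 and -0.82.

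Receptors and early genes of the IL-4 response were compared in M[0], whose cells received no IL-4. *Egr2*, a transcription factor of alternative activation, had 13.2, 12.9 and 13.4 CPM with HC3 and 3.79, 3.56 and 4.83 CPM with RSM, against 21.3 to 25.0 with Veh. It was 3.24-fold higher with HC3 (log2 fold change 1.70, SE 0.125, FDR = 2.74e-08). *Il4ra* and *Il13ra1*, chains of the IL-4 and IL-13 receptors, passed the FDR alone, higher with RSM, with log2 fold changes of -0.45 (FDR = 0.000111) and -0.84 (FDR = 2.73e-05). *Klf4* did not pass in the reported fit (-0.16, FDR = 0.226), and its FDR ran from 0.0195 to 0.517 over the 18 alternatives. *Retnla*, the gene of RELMα, had no counts in the 6 libraries, and *Arg1* had at most 0.308 CPM in any of them. Of the 36 tested genes of alternative activation 5 were called higher with HC3 (*Itgax*, *Egr2*, *Matk*, *Flt1* and *Clec7a*) and *Mrc1* with RSM, against 1.61% and 1.44% of all genes. The call of *Flt1* was lost without replicate 2. None of 18 tested checkpoint and costimulatory genes was called. By the FDR alone 3 were higher with HC3 and 6 with RSM, against 926 and 1113 of 14979 genes. *Cd80*, a costimulatory ligand, had 15.0 to 19.7 CPM with RSM and 7.52 to 9.42 with HC3 (1.95-fold higher with RSM, FDR = 0.000104), and was called under 4 of 18 alternatives. *Cd274* (PD-L1) was above Veh with both inhibitors, at 158 to 223 CPM with HC3 and 110 to 138 with RSM (log2 fold change 0.59, FDR = 0.0114), and a gene on the other strand covers 14.1% of its exons. Of 29 cytokine genes 2 were called higher with HC3 and 1 higher with RSM, against 1.61% and 1.44% of all genes. *Il1rn*, the IL-1 receptor antagonist, was 3.02-fold higher with HC3, and *Nlrp3*, the inflammasome sensor, 2.16-fold higher with RSM (62.6 to 65.7 against 29.4 to 30.5 CPM). *Tgfb2*, a transforming growth factor, was 2.02-fold higher with HC3 (FDR = 0.0464), a call lost under 9 of 18 alternatives, among them DESeq2 and library size scaling. None of 49 interferon genes was called, 2 passed the FDR alone, both higher with RSM, and the median was -0.28.

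**Figure D4:**
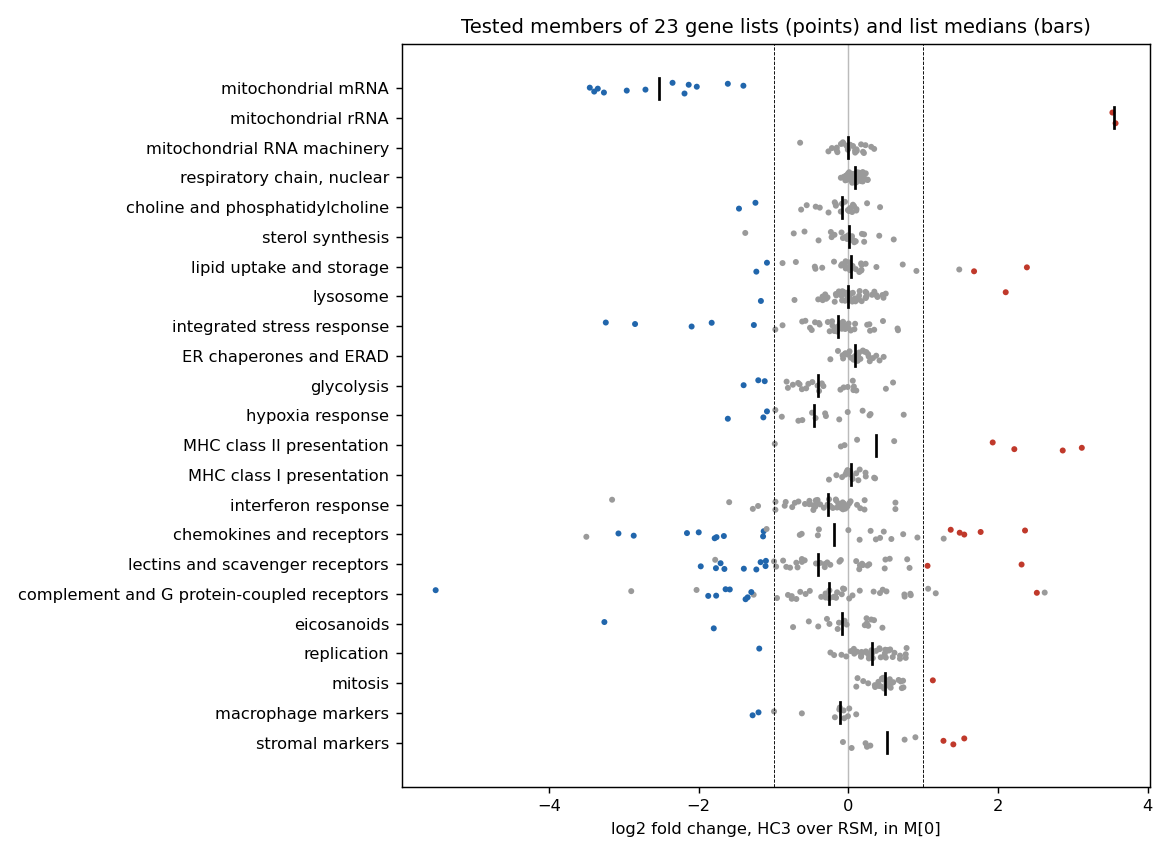
Each row is 1 of 23 gene lists, the x axis gives the log2 fold change of HC3 over RSM in M[0], and dashed lines mark a 2-fold change. Points are tested genes, red where called higher with HC3, blue where called higher with RSM and grey where not called, and the black bar is the list median. Mitochondrial messenger RNA (median -2.53) and rRNA (median 3.55) lie apart from 0 as a whole, the nuclear respiratory chain (median 0.085) lies at 0, and MHC class II has 4 members apart from its other 6.

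Of the 47 lists 15, with 381 tested genes, had no called member. Marker lists of other cell types moved with some results. Stromal markers summed to 2145 to 2864 CPM with HC3, 1485 to 2253 with RSM and 780 to 1368 with Veh. Of 10 tested members 3 were called higher with HC3 (*Postn*, *Dcn* and *Cxcl12*), against 1.61% of all genes. The median of the list was 0.52, and *Lum* had no counts. The part of stromal markers in the difference of matrix genes was not tested. *Kit*, a receptor of mast cells and progenitors, was 4.99-fold higher with HC3 (10.3 to 18.1 against 2.46 to 3.15 CPM). It was the called 1 of 4 tested mast cell and basophil markers, whose log2 fold changes ran from 0.0765 to 2.32. *Mcpt4*, *Tpsb2*, *Tpsab1*, *Fcer1a*, *Ms4a2* and *Cma1* had no counts. For dendritic cells, which also carry *Itgax* and MHC class II, none of 3 tested markers was called, the list summed to 56.6 to 61.9 CPM with HC3 and 62.9 to 66.7 with RSM, and *Cd209a* had no counts. B cell markers, from cells that also carry MHC class II, summed to 11.2 to 17.9 CPM with HC3 and at most 13.5 with RSM, with *Pax5* and *Ms4a1* at 0; *Ighm* was called (2.68-fold), a call lost under 5 of 18 alternatives. Of 4 tested neutrophil markers *Mmp8* was called, and the list summed to 44.1 to 57.8 CPM with HC3 and 91.1 to 111 with RSM. Of the T and NK markers *Cd4* was the member tested and was 3.33-fold higher with HC3, where it had at most 1.74 CPM, with *Cd3d*, *Cd3e*, *Cd3g* and *Cd8a* at 0. No tested erythroid or megakaryocyte marker was called.

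The genes called in M[0] were then read in M[IL-4], whose libraries were not in the contrast that chose them but shared the count filter and the estimate of spread. With the 6 compared libraries alone, 419 of the 456 genes were still called. In M[IL-4], 419 of 14979 genes were called for HC3 against RSM (2.8%). Of the 241 HC3-high genes 103 (42.7%) were called in the same direction in M[IL-4], 225 had the same sign and 1 was called in the opposite direction. That gene was *Gm8989*, a predicted gene named after its values were seen, at 5.49 on the log2 scale in M[0] and -1.52 with IL-4. Of the 215 RSM-high genes 126 (58.6%) were called in the same direction, 207 had the same sign and none was called in the opposite direction. For the HC3-high genes the median log2 fold change was 1.56 in M[0] and 1.03 with IL-4, and for the RSM-high genes -1.55 and -1.26; the M[0] values are those that chose the genes. All 12 mitochondrial messenger RNAs, both rRNAs and 12 of the 13 tRNAs were called in the same direction again. So were *H2-Eb1* (2.77), *H2-Aa* (2.43), *Mmp12* (1.94), *Lpl* (1.62), *Pf4* (-3.31), *Ccl6* (-1.90) and *Mrc1* (-1.55), given as log2 fold changes in M[IL-4].

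In the reported fit, which has no replicate block, the difference between the inhibitors itself depended on polarization for few genes. In the interaction test 11 genes were called (0.0734%), all with a higher HC3 to RSM ratio in M[0] than in M[IL-4], and 7 of them were among the 456. The count was 32 with a block for the replicate number and 45 with the block within each polarization, 2 without replicate 1, 3 without replicate 3 and 6 without RSM replicate 1 or 3. *Itgax* differed by 4.55 on the log2 scale in M[0] and by 2.45 with IL-4 (difference 2.10, SE 0.226, FDR = 0.00038). For *Egr2* it was 1.70 and 0.36, for *Atp6v0d2* 2.10 and 0.57 and for *Nptx1*, neuronal pentraxin 1, 2.06 and 0.26; none of these 3 was called in M[IL-4]. *Bmp2*, a bone morphogenetic protein, and *Itgb3* were called in M[0] and had log2 fold changes of -0.12 and -0.40 in M[IL-4]. None of the 215 RSM-high genes was called in the interaction.

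**Figure D5:**
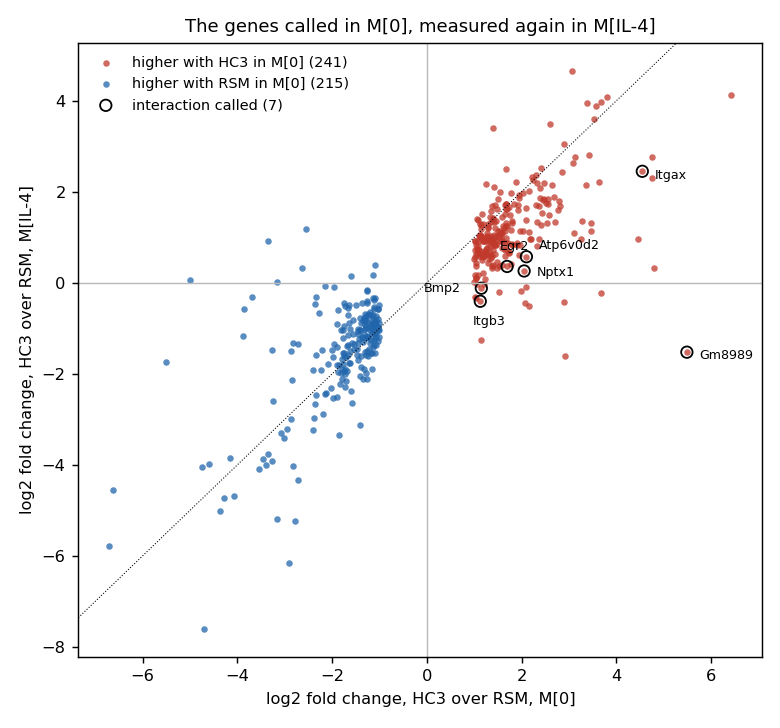
Each point is 1 of the 456 genes called in M[0], with its log2 fold change of HC3 over RSM in M[0] on the x axis and in M[IL-4] on the y axis; the dotted line marks equal values and black rings the 7 genes called in the interaction. Of the 456 genes 432 have the same sign in both states, and the ringed genes lie below the dotted line.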

How the data were processed

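RNA was sequenced from 18 BMDM libraries, 3 in each of 6 groups, after selection with poly-T beads. The authors used fastp for adapter removal, STAR in local mode for alignment to GRCm38, a filter on mapping quality, Picard to mark duplicates, which were retained, and featureCounts on exons. The deposited values are raw counts per Ensembl gene. Tool versions, the annotation release and the strand setting are not given in the sources used here, so counts of genes that overlap on opposite strands are uncertain.

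Genes that reached 10 counts in 2 or more libraries (14979 of 55385) were scaled by TMM and fitted over all 18 libraries in edgeR 4.0.16 (R 4.3.3) with a coefficient per group. HC3 was tested against RSM with the quasi-likelihood test and Benjamini-Hochberg adjustment. The SE is the absolute log2 fold change divided by the square root of F. CPM are TMM-scaled. Exact permutation of 3 against 3 libraries cannot go below p = 0.1. Gene names and positions were matched for 55144 genes in GENCODE M21, and near-identical copies (98% over 100 bases) were found with blastn 2.17.0. The procedure was tested on simulated data.

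Same-numbered libraries deviated together (r = 0.13 to 0.26 over the 9 pairs of M[0] groups), a pairing read from the counts and not from the labels. The reported SE, FDR and calls come from the fit without a replicate block, so they leave this pairing out. With the block 551 genes were called and 2953 passed the FDR alone, against 456 and 2039 in the reported fit. The labels do not say which mouse gave which library, and p-values measure the spread between these libraries. Other settings were DESeq2 1.42.0, the replicate block, fewer libraries, other scaling and filters, and each library or replicate left out. The members and 47 gene lists were chosen with earlier results of these data known. Genes named were the 12 largest differences in each direction among called genes averaging 50 counts or more on their higher side and moving that way in 3 of 3 pairs, the 10 of lowest FDR in each direction, the 4 called members of lowest FDR per list and direction, all tested mitochondrial mRNA, rRNA and choline genes, genes shown by the study, and the 5 of lowest FDR in each direction of the interaction. Results for some genes that this rule names are not reported here.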

Additional observations from a re-analysis of the deposited data

Results flagged for a closer look

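The interaction passed an FDR of 0.05 in edgeR's quasi-likelihood test for 10 of the genes named in the text, with or without a 2-fold difference. Of these 8 had a positive and 2 a negative difference. The naming rule took the 5 genes of lowest interaction FDR in each direction, so this count and its split were partly set by that choice. Over all genes tested, 28 of 14979 (0.187%) passed this FDR. Values are the log2 fold change of HC3 over RSM in M[0] minus that in M[IL-4]. For *Itgax* this difference was 2.10 (SE 0.226, FDR = 0.00038), from 4.55 in M[0] and 2.45 in M[IL-4], so that HC3 was called higher in both states. For *Egr2* it was 1.33 (SE 0.154, FDR = 0.000532), for *Nptx1* 1.79 (SE 0.233, FDR = 0.00148) and for *Atp6v0d2* 1.53 (SE 0.226, FDR = 0.00388), each called in M[0] and not in M[IL-4].

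For *Itgb3* the difference was 1.53 (SE 0.254, FDR = 0.0109) and for *Bmp2* 1.27 (SE 0.226, FDR = 0.0166), with log2 fold changes of the opposite sign in M[IL-4] that were not called. *Secisbp2l* differed by 0.69 (SE 0.088, FDR = 0.00148), from -0.21 in M[0] and -0.90 in M[IL-4]. *Angptl2*, an angiopoietin-like secreted protein, differed by 0.79 (SE 0.106, FDR = 0.0017), from 0.84 and 0.05. In the reverse direction *Mmp13*, a collagenase, differed by -0.59 (SE 0.110, FDR = 0.0261), from -0.83 and -0.24, and *Plaur*, the urokinase receptor, by -0.66 (SE 0.125, FDR = 0.0296), from -0.46 and 0.20.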

How the results depend on the processing

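The number of genes separating HC3 from RSM in M[0] was 456 and ranged from 428 to 587 over the 9 alternatives that kept all replicates. Leaving out replicates gave 256 (without replicate 3) to 446, with 117 to 247 higher with HC3 and 139 to 199 higher with RSM; 138 to 216 of them were called in the same direction in M[IL-4]. The number of genes whose difference depended on polarization was the least stable count, 11 as reported, 25 in DESeq2, 49 without a count filter and 2 to 12 with replicates left out. With the replicate block, which follows from the pairing of the libraries, it was 32, and 45 with the block within each polarization; the block removed none of the 456 calls. The log2 fold change of *Chka*, at -0.0064 and not called, ranged from -0.083 without replicate 3 to 0.13 without replicate 1, and was 0.029 without HC3 replicate 1 and 0.084 without RSM replicate 1, and that of *Retnla*, without counts in the 6 libraries, was -0.000256 with the replicate block. The cause was not tested. A fit of only 6 or 9 libraries cannot give the counts that need M[IL-4]. Low counts limit the tRNA genes, *Slc7a3* and *Pcyt1b*.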
